A study of Mus musculus with 7 samples.

Results

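A set of 10 genes that encode collagens, laminin chains and linker proteins of basement membrane were followed in mouse precision-cut liver slices (PCLS) cultured with or without valproic acid (VPA). The genes were chosen by name, as Col4a1, Col4a2, Col15a1, Col18a1, Lama4, Lama5, Lamb1, Lamc1, Nid1 and Hspg2, and are 10 of the 55487 genes in the count table. Slices came from healthy adult male Balb/c mice and were kept for 3 days in supplemented Williams' Medium E, without an additive (CTR, 3 libraries) or with 2.5 mM VPA (VPA, 4 libraries). VPA is an inhibitor of class I histone deacetylases. Each slice was 250 µm thick and 3 mm in diameter, so a library holds RNA of every cell type of the liver lobule that was still present on day 3. Both groups were cultured, and no uncultured slice enters the comparison, so the values describe VPA against plain culture and not against fresh liver. In bulk tissue of this kind, fewer cells of a type and less RNA per cell cannot be told apart. The study's methods take a biological repeat as a separate liver.

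Basement membrane is the thin sheet of matrix on which endothelium and epithelium rest. Laminins are trimers of an alpha, a beta and a gamma chain that polymerise at the cell surface, and type IV collagen forms a second, covalently crosslinked network over them. Nidogen and perlecan tie both networks together, and collagens XV and XVIII sit at the border between the sheet and the interstitial matrix. The healthy liver sinusoid has no continuous basement membrane, and its build-up along the sinusoid, with contributions from stellate and endothelial cells, is a known feature of fibrosis (capillarization). Portal vessels, central veins and bile ducts carry ordinary basement membrane.

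Of the 10 genes, 8 were lower and 2 were higher in VPA than in CTR by fitted fold change. Col4a1, one of both chains of the common type IV collagen, fell from 273 ± 33.5 to 168 ± 10.6 CPM (counts scaled to a common library size, mean ± SD, n = 3 and 4), and Col15a1 was at 0 counts in all 4 VPA libraries against 11.0 to 24.8 CPM in CTR. None of the 10 genes passed an adjusted p of 0.05 in edgeR's quasi-likelihood test, where 1 of 10876 genes tested did (0.00919%). At an unadjusted p under 0.05, 4 genes were lower (Col4a1, Col4a2, Col15a1 and Nid1) and 0 were higher, against 4.62% of all genes tested that were lower and 3.65% that were higher. DESeq2 put Col4a1 and Col15a1 past its adjusted threshold, which 0.754% of its genes passed as lower. In limma-voom 0 of the 10 genes passed an adjusted p of 0.05. A gene is said to have fallen or risen where its unadjusted p was under 0.05.

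Promoter sequence is shown for the genes whose values differ most in kind, namely the head-to-head pair Col4a1 and Col4a2, the gene at 0 with VPA (Col15a1), the linker Nid1 and a laminin chain that was not lower (Lamb1). All coordinates are on GRCm38, and sequences are those of RefSeq (GRCm38.p6), whose promoter table held 9 windows for 8 of the 10 genes. Col4a1 (8:11198423-11312826, minus strand) and Col4a2 (8:11312805-11449287, plus strand) overlap by 22 bases at their starts, so each gene begins inside the other and both are transcribed away from a shared promoter. These 22 bases, read in the direction of each gene with a GC box in capitals, are as follows.
Col4a2: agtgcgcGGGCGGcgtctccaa
Col4a1: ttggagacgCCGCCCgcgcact
The next stretches end at the base before the annotated or RefSeq start of the gene, on the plus strand, at chr4:47207762-47208011 for Col15a1, chr13:13437352-13437550 for Nid1 and chr12:31265043-31265233 for Lamb1. Capitals mark GC boxes (GGGCGG) and CCAAT boxes (CCAAT) on either strand.
Col15a1: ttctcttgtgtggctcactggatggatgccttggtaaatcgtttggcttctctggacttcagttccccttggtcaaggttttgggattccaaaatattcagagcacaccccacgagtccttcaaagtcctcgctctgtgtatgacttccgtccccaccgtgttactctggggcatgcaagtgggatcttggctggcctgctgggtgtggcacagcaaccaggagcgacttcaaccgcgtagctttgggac
Nid1: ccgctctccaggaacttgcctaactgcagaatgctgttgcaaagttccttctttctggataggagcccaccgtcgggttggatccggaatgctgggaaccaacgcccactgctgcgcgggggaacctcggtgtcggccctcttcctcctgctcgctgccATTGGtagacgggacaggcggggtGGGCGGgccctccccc
Lamb1: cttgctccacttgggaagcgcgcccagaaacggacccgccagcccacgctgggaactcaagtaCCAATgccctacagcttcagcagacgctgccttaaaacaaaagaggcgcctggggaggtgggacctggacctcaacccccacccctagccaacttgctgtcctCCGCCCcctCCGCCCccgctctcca

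The Col15a1 window held neither box, while Nid1 and Lamb1 each held both. Over windows of 300 bases, 7 of the 9 held GGGCGG, 5 held CCAAT and 0 held the TATA box letters TATAAA, searched on both strands, against 35.7%, 37.4% and 13.6% of the 32851 windows of that length in the table. Col18a1 has 2 windows, of which the upstream one held 3 GC boxes and a CCAAT box and the downstream one held neither. Reads from the 3′ end of the transcript cannot tell which of both starts was used. These matches describe letters only.

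Col4a1 encodes the alpha1 chain, which makes up most of the common type IV collagen trimer together with the product of Col4a2. Its levels were 306, 239 and 274 CPM in CTR replicates 1 to 3 and 175, 158, 178 and 159 CPM in VPA replicates 1 to 4. Every VPA library lay below every CTR library, as in 7.41% of all genes tested. The log2 fold change was -0.70 (SE 0.138, adjusted p = 0.227 by edgeR), and the adjusted p by DESeq2 was 0.00977. The two-sided exact permutation test of mean log2 CPM gave p = 0.0286, the smallest that 35 regroupings of 3 and 4 libraries allow. Leaving out any single library kept the log2 fold change of Col4a1 between -0.80 and -0.63 and its unadjusted p under 0.05.

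Col4a2 stood at 127, 102 and 148 CPM in CTR and at 97.3, 95.3, 87.5 and 94.4 CPM in VPA. Again the groups did not overlap, but the lowest CTR library was separated from the highest VPA library by a small margin. Its log2 fold change was -0.42 (SE 0.165, adjusted p = 0.571 by edgeR), and the exact permutation p was 0.0286. This call was lost in DESeq2, in limma-voom, with at least 10 counts in every library and with a replicate block of either kind. With a library left out, the unadjusted p of Col4a2 in edgeR stayed under 0.05 only when CTR replicate 2 was that library, and the log2 fold change was between -0.56 and -0.31.

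The ratio of Col4a1 to Col4a2 reads within a library how both chains moved against each other. It was 2.41, 2.35 and 1.85 in CTR and 1.80, 1.66, 2.03 and 1.68 in VPA (0.5 added to each count). One VPA library lay inside the CTR range, and the mean log2 difference of -0.29 had an exact permutation p of 0.114. A change in the proportion of both chains was thus not resolved with 3 and 4 libraries. Together Col4a1 and Col4a2 made up 50.6%, 53.7% and 51.6% of the summed CPM of the 10 genes in CTR and 50.8%, 48.2%, 51.2% and 44.1% in VPA.

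**Figure D1:**
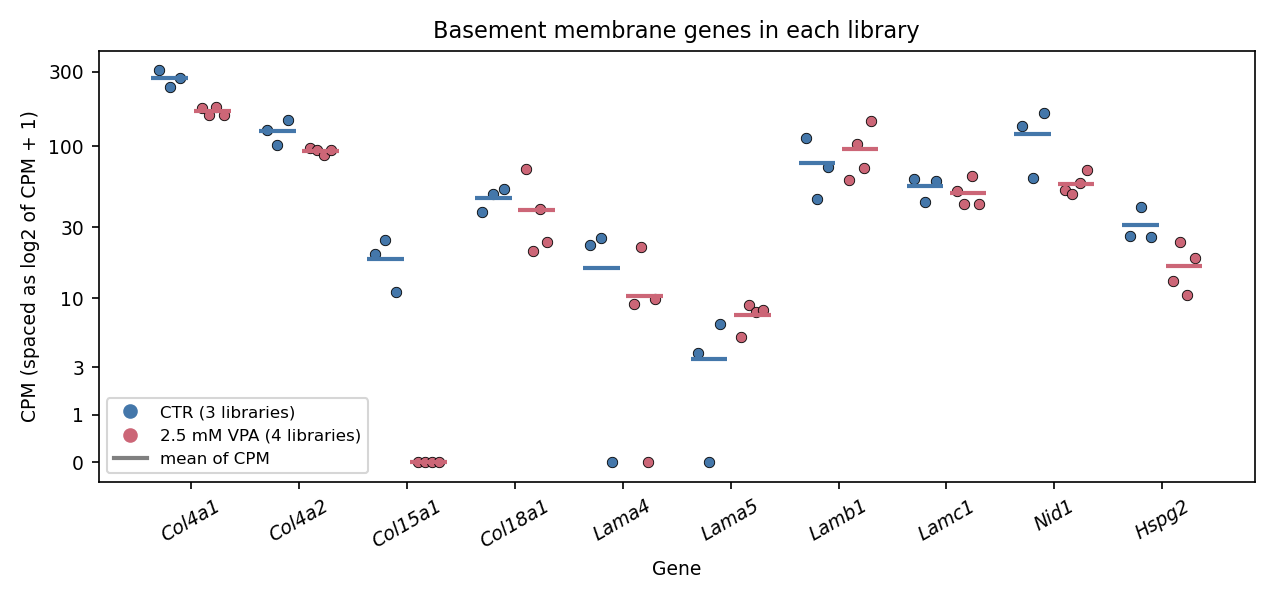
Level of the 10 basement membrane genes in each library, in CPM on an axis spaced as log2 of CPM + 1, with a point for each of 3 CTR and 4 VPA libraries and a bar at the mean. Col4a1, Col4a2, Col15a1 and Hspg2 show no overlap between groups, and Col15a1 lies at 0 in all 4 VPA libraries.

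The multiplexins, collagens XV and XVIII, release C-terminal fragments (restin and endostatin) with effects on vessel growth. Col15a1 (4:47208161-47313167, plus strand) had 51, 126 and 20 counts in CTR, or 20.1, 24.8 and 11.0 CPM, and 0 counts in each of the VPA libraries. Set against a floor of 3 counts per library, its mean was at least 9.86-fold lower with VPA. This floor allows for counting at the depth of a library and not for the spread between libraries. edgeR gave an unadjusted p under 0.05 and an adjusted p of 0.210, DESeq2 an adjusted p of 3.0e-05, and the exact permutation test p = 0.0286. Genes at 0 counts in all 4 VPA libraries made up 0.359% of those tested (39 of 10876).

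Zeros were frequent with VPA at this level of expression, as the plot of zeros shows. Among 4798 tested genes with a CTR mean of 10 to 40 CPM, the range in which Col15a1 lies, 27.8% were at 0 in at least 1 of 4 VPA libraries and 5.19% in at least 1 of 3 CTR libraries. Choosing genes by their CTR mean limits zeros in CTR, and among 4637 genes chosen instead by a VPA mean of 10 to 40 CPM, 6.17% were at 0 in at least 1 CTR library. All 4 VPA libraries were at 0 for 27 of the 4798 genes chosen by CTR mean (0.563%). A count of 3 corresponded to between 0.591 and 2.41 CPM in these libraries, below the lowest CTR level of Col15a1. VPA libraries also had fewer genes with any count (14359 to 16761) than CTR libraries (17744 to 19756). Library totals were 1515954, 3102450, 1400887 and 1452557 counts in VPA replicates 1 to 4. They were 2742335, 4773750 and 1743675 in CTR replicates 1 to 3. VPA replicate 2, deeper than CTR replicates 1 and 3, had 15241 genes with a count. The part of depth and of the number of genes detected in the zeros of Col15a1 was not tested.

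**Figure D2:**
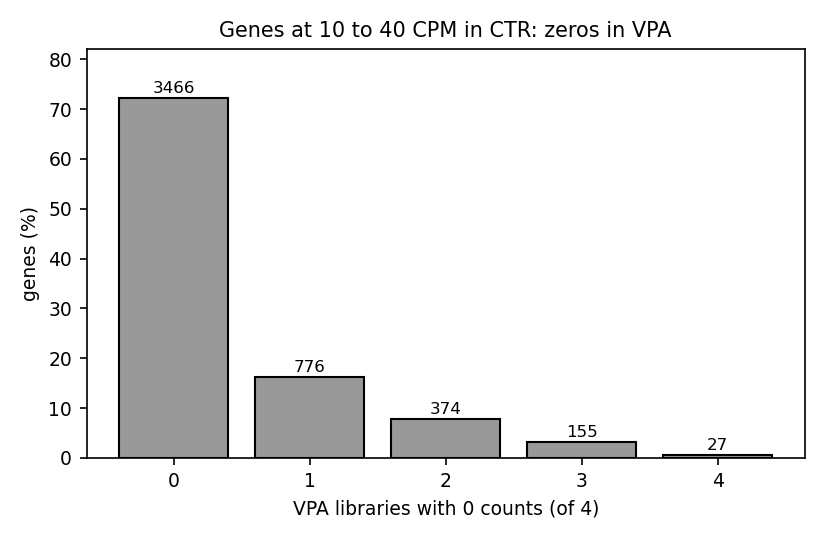
Share of the 4798 tested genes with a CTR mean of 10 to 40 CPM (vertical axis, percent) by the number of VPA libraries in which the gene had 0 counts (horizontal axis), with the number of genes above each bar. Col15a1 is among the 27 genes at 0 in all 4 VPA libraries.

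Col18a1 (10:77052178-77166548, minus strand) stood at 37.8, 49.3 and 53.2 CPM in CTR and at 71.8, 20.9, 39.3 and 24.2 CPM in VPA. VPA replicate 1 was the highest of all 7 libraries and VPA replicates 2 and 4 the lowest, so the VPA group enclosed the CTR group. VPA replicate 1 also had the highest level of the hepatocyte gene Alb, at 5066 CPM against 785 to 2175 CPM in the others, and the part of this in Col18a1 was not tested. The log2 fold change was -0.26 (SE 0.441, adjusted p = 0.951 by edgeR). It was -0.74 without VPA replicate 1, -0.04 without VPA replicate 2 and -0.10 without VPA replicate 4, each with an unadjusted p above 0.05. VPA replicate 1 carries slice culture number 73, which no CTR library shares. In cultures 71, 72 and 74, which have a library of each group, Col18a1 was lower with VPA with log2 CPM differences (VPA minus CTR) of -0.43, -0.63 and -1.20. What the culture number marks is not stated in the labels.

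Counts of Col15a1 were 0.531, 0.504 and 0.206 of those of Col18a1 in CTR. In VPA, where Col15a1 was at 0, a floor of 3 counts put the same ratio at no more than 0.0273, 0.0441, 0.0612 and 0.0938. All of these limits lay below the lowest CTR ratio, which follows from the zeros of Col15a1. A gene on the opposite strand inside Col18a1, Slc19a1, had 131 counts over all libraries, and how strand was handled in counting is not given in the sources used here.

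The laminin chains held no call. Lama4 and Lama5 encode the alpha chains of the vascular laminins, and Lamb1 and Lamc1 the beta and gamma chains that both share. Among the 4 chains, 2 were lower and 2 higher with VPA, and 0 passed an unadjusted p of 0.05 in edgeR.

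Lama4 (10:38965515-39110188, plus strand) was at 22.9, 25.4 and 0 CPM in CTR and at 9.14, 22.1, 0 and 9.82 CPM in VPA. Both zeros came from slice culture 71, 1 in each group, while the other cultures ranged from 9.14 to 25.4 CPM. Lama4 was 1 of 28 tested genes at 0 in both libraries of culture 71 with at least 10 counts in the rest, and 6 such genes were found for culture 72 and 6 for culture 74. Culture 71 holds the shallowest library of each group (1743675 counts in CTR and 1400887 in VPA). The part of depth in these zeros was not tested. The log2 fold change of Lama4 was -0.63 with an SE of 1.449 (adjusted p = 0.963 by edgeR), so that a difference in either direction was not resolved. With 1 library left out it ran from -1.34 (without VPA replicate 2) to -0.15 (without CTR replicate 2). Within cultures 72 and 74 Lama4 was lower with VPA.

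Lama5 (2:180176373-180225859, minus strand) was the least abundant gene in CTR, at 3.94, 0 and 6.58 CPM, and stood at 5.22, 8.92, 8.03 and 8.31 CPM in VPA. In all, 3 of the 4 VPA libraries lay above every CTR library. The log2 fold change was 1.15 (SE 1.281, adjusted p = 0.924 by edgeR), with an exact permutation p of 0.0571. It was 0.53 without CTR replicate 2, the library at 0, and 1.95 without CTR replicate 3. In limma-voom the log2 fold change of Lama5 was 3.73 with an unadjusted p under 0.05. Counts behind these levels were few, and the ratio of Lama4 to Lama5 could not be read because a zero entered it in both groups (exact permutation p = 0.457).

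Lamb1 (12:31265234-31329644, plus strand) stood at 113, 46.1 and 74 CPM in CTR and at 60.7, 104, 72.3 and 146 CPM in VPA. The groups overlapped over most of their range, and the log2 fold change was 0.30 (SE 0.395, adjusted p = 0.937 by edgeR). With 1 library left out it ran from 0.02 (without CTR replicate 2) to 0.67 (without CTR replicate 1). Lamc1 (1:153218922-153332786, minus strand) had 61.9, 44.2 and 60.3 CPM in CTR and 51.6, 42.7, 65.0 and 42.3 CPM in VPA. Its log2 fold change of -0.14 had an SE of 0.236 (adjusted p = 0.953 by edgeR), the smallest difference among the 10 genes with all libraries. With 1 library left out it ran from -0.29 to -0.06. Without CTR replicate 2 the difference of Lamb1 (0.02) was smaller than that of Lamc1 (-0.29). The ratio of Lamb1 to Lamc1 was 1.83, 1.04 and 1.23 in CTR and 1.18, 2.43, 1.11 and 3.42 in VPA, with an exact permutation p of 0.429. VPA replicates 2 and 4 had the highest ratios, and replicates 1 and 3 lay within the CTR range. Both Gm38009 and Gm8818, small annotated genes inside Lamc1, held 63 and 11 counts over all libraries.

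**Figure D3:**
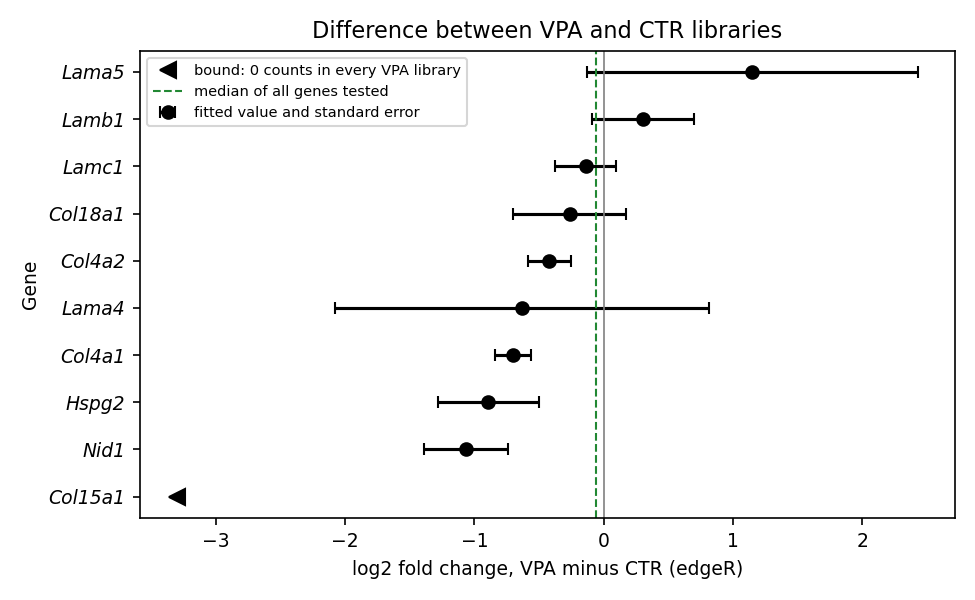
log2 fold change (VPA minus CTR, edgeR) of each gene with its standard error, where Col15a1 is drawn as an arrowhead at its bound of 9.86-fold lower and the dashed line marks the median of all genes tested (-0.06). Lama5 and Lamb1 lie to the right of zero and the other 8 genes to the left, and the intervals of Lama4 and Lama5 are the widest.

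Nid1 and Hspg2 encode the linkers nidogen 1, which binds the laminin gamma1 chain and type IV collagen, and perlecan, a heparan sulfate proteoglycan that also holds growth factors. Nid1 (13:13437551-13512269, plus strand) stood at 136, 62.9 and 164 CPM in CTR and at 52.2, 49.5, 57.8 and 71 CPM in VPA. In all, 3 of the 4 VPA libraries lay below every CTR library, and CTR replicate 2 was the one that VPA replicate 4 passed. The log2 fold change was -1.07 (SE 0.324, adjusted p = 0.447 by edgeR), with an exact permutation p of 0.0571. Leaving out 1 library at a time gave log2 fold changes from -1.39 to -0.81 for Nid1, each with an unadjusted p under 0.05.

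Hspg2 (4:137468769-137570630, plus strand) stood at 26.4, 40.8 and 25.8 CPM in CTR and at 13.1, 24.0, 10.4 and 18.9 CPM in VPA. No VPA library reached the lowest CTR library, although VPA replicate 2 came close to it. The log2 fold change of -0.89 (SE 0.389) missed an unadjusted p of 0.05 in edgeR (adjusted p = 0.608), and the exact permutation p was 0.0571. Leaving out a library gave log2 fold changes from -1.13 to -0.65 for Hspg2, the latter without CTR replicate 2, the highest library. Among these fits the unadjusted p went under 0.05 only without VPA replicate 2. It was also under 0.05 with no filter, with at least 10 counts in every library and with a replicate block by replicate number. It was not in DESeq2, in limma-voom, with another scaling or with a replicate block by slice culture.

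Read together, 4 of the 10 genes (Col4a1, Col4a2, Col15a1 and Hspg2) had every VPA library below every CTR library, an arrangement found in 7.41% of all genes tested. The median log2 fold change of the 10 genes was -0.53, against -0.06 over all genes tested. The summed CPM of the 10 genes was 855, 634 and 816 in CTR and 536, 526, 519 and 573 in VPA, so that the lowest CTR library exceeded the highest VPA library. By general knowledge of their sources, which overlap, Lama4, Lama5, Hspg2, Col15a1 and Col18a1 are counted here as mostly of vessels. This does not mean vessels alone, as hepatocytes also make Col18a1. Col4a1, Col4a2, Lamb1, Lamc1 and Nid1 are counted as made by stellate cells and vessels alike. No cell source was measured in these libraries. In the vessel group 4 of 5 genes were lower (median log2 fold change -0.63, 1 at an unadjusted p under 0.05), and in the group shared with stellate cells also 4 of 5 (median -0.42, 3 at an unadjusted p under 0.05), where 4.62% of all genes tested were lower at that level. The single call of the vessel group was Col15a1, the gene at 0. The vessel genes were the less abundant, with CTR means of 3.51 to 46.8 CPM against 55.4 to 273 CPM, and each zero listed above fell among them.

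A library of this kit holds 1 read per transcript end, so levels of different genes can be set side by side without a correction for length. In CTR, Col4a1 was above all others in each library. Next came Col4a2, Nid1, Lamb1, Lamc1, Col18a1 and Hspg2, in which each gene overlapped its neighbour in the order. Col15a1, Lama4 and Lama5 stood last, below the range of Hspg2, where Lama4 overlapped both of the others and Col15a1 lay above Lama5. In VPA the order began with Col4a1, followed by Lamb1 and Col4a2, which overlapped, and then, after a gap below Col4a2, by Nid1, Lamc1, Col18a1, Hspg2, Lama4 and Lama5, each overlapping the next. Col15a1 was last, at 0.

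The genes whose log2 CPM over the 7 libraries was most like that of Col4a1 were Cyp2a5, Pagr1a, Gm4739, Cited2 and Zfp704 (Pearson r 0.980 to 0.981 over 10876 genes). Of the other basement membrane genes, Col15a1 ranked 69th (r = 0.931), Col4a2 ranked 233rd (r = 0.841) and Nid1 ranked 245th (r = 0.835). The 7 points share the difference between groups, and Hspg2, also lower in all VPA libraries, had r = 0.557.

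Fibrillar collagens, the collagens of interstitial scar, were read beside the network collagens. Col1a1, which encodes the main chain of type I collagen, was at 949, 515 and 704 CPM in CTR and at 238, 172, 244 and 261 CPM in VPA (log2 fold change -1.66, SE 0.239, adjusted p = 0.112 by edgeR and 4.4e-07 by DESeq2). Col1a2 and Col3a1 also fell (log2 fold changes -1.58 and -1.51, adjusted p = 0.213 and 0.417 by edgeR and adjusted p = 0.000539 and 0.0613 by DESeq2). Col5a1 had a log2 fold change of -0.69 (adjusted p = 0.793 by edgeR). Of 8 fibrillar collagens tested, 7 were lower, 3 of them at an unadjusted p under 0.05 (4.62% of all genes tested), and 0 rose, with a median of -1.10. The count of 3 was 5 without VPA replicate 4 and in limma-voom, and 6 with a replicate block by replicate number. The ratio of Col4a1 to Col1a1 was 0.323, 0.464 and 0.389 in CTR and 0.735, 0.918, 0.731 and 0.608 in VPA. Every VPA library was higher than every CTR library, and the log2 ratio differed by 0.93 (means -1.37 ± 0.262 and -0.43 ± 0.244, SD, exact permutation p = 0.0286). The ratio compares both genes and does not say that either was constant.

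**Figure D4:**
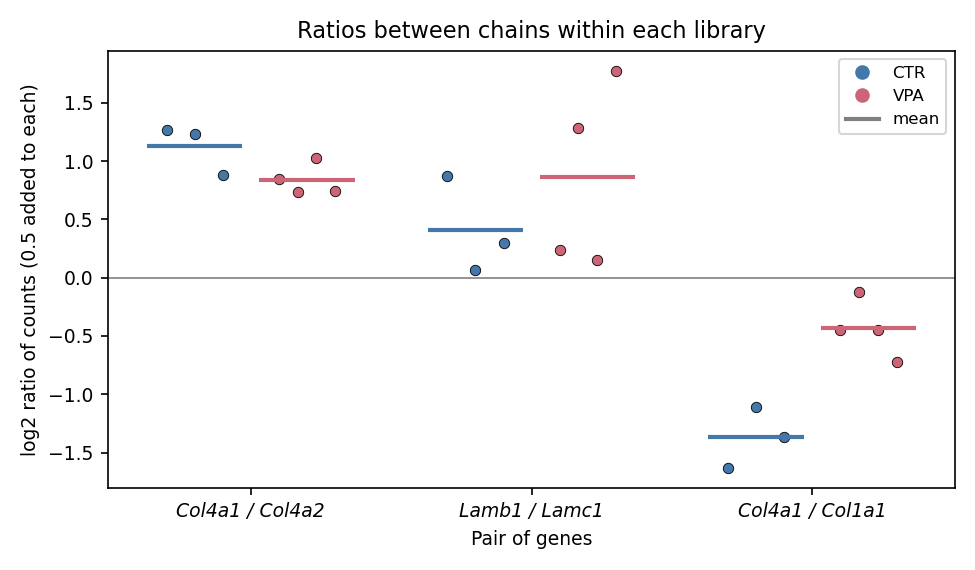
log2 ratio of counts (0.5 added to each) for 3 pairs of genes in each library, with a bar at the group mean. The ratios of Col4a1 to Col4a2 and of Lamb1 to Lamc1 overlap between groups, and the ratio of Col4a1 to Col1a1 is higher in all 4 VPA libraries than in any CTR library.

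Other basement membrane genes had 10 of 30 members tested, of which 7 were lower and 3 higher, 2 of them lower at an unadjusted p under 0.05 and 0 higher (median -0.35), against 4.62% and 3.65% of all genes tested. The count of 2 was 1 with a replicate block of either kind and with at least 10 counts in every library, and it was 3 in limma-voom. Sparc, a matricellular protein that binds type IV collagen, fell from 1989, 1261 and 1579 CPM to 760, 568, 747 and 1053 CPM (log2 fold change -1.04, SE 0.244, adjusted p = 0.295 by edgeR). Smoc2, a relative of Sparc, was at 9.46, 6.31 and 11.5 CPM in CTR and at 0 in all VPA libraries (adjusted p = 0.331). Ntn4, netrin 4, which binds laminin gamma chains, had a log2 fold change of -2.01 (adjusted p = 0.838).

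Receptors for basement membrane had 16 of 20 genes tested, 12 lower and 4 higher, with 0 at an unadjusted p under 0.05 in either direction in edgeR (median -0.30). The count of lower receptors was 1 in DESeq2, with a replicate block of either kind, with no filter and without CTR replicate 1, VPA replicate 1 or VPA replicate 4, and 2 in limma-voom, and 1 was higher without CTR replicate 2. The genes with the smallest p were Itga7, a laminin-binding integrin chain, with a log2 fold change of 1.17 (adjusted p = 0.692), Itgb3 with -0.72 (adjusted p = 0.728), Itga6 with -1.47 (adjusted p = 0.794) and the proteoglycan Sdc1 with -0.39 (adjusted p = 0.831). Genes for folding, secretion and crosslinking of type IV collagen had 19 of 21 tested, 13 lower and 6 higher (median -0.14). Loxl2, a crosslinking enzyme of the type IV network, fell (log2 fold change -0.60, SE 0.247, adjusted p = 0.575) and was the single one of the list under 0.05, where 4.62% of all genes tested were lower at that level. This call was lost in DESeq2 and without CTR replicate 1, CTR replicate 3 or VPA replicate 3. The list count was 2 with the slice culture as a replicate block, with at least 10 counts in every library and without VPA replicate 1. Lox had -0.95 (adjusted p = 0.707), the collagen chaperone Serpinh1 had -0.40 (adjusted p = 0.709) and the prolyl hydroxylase P4ha1 had -0.53 (adjusted p = 0.779).

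Genes of basement membrane degradation held calls in both directions. Of 17 genes, 13 were tested, 9 were lower and 4 higher, with 5 lower and 1 higher at an unadjusted p under 0.05 (median -0.53), against 4.62% and 3.65% of all genes tested. The count of 5 was 2 without CTR replicate 1, 3 without VPA replicate 4 and 2 to 5 over all alternatives. Mmp14, a membrane-bound collagenase that also activates the type IV collagenase Mmp2, fell from 308, 218 and 240 CPM to 106, 126, 115 and 142 CPM (log2 fold change -1.06, SE 0.175, adjusted p = 0.142 by edgeR). Ctsl, a lysosomal cysteine protease, rose from 634, 375 and 542 CPM to 1055, 1476, 2172 and 886 CPM (log2 fold change 1.43, SE 0.350, adjusted p = 0.320). Timp3, a matrix-bound inhibitor of metalloproteinases, and Bmp1, a procollagen protease, fell as well (log2 fold changes -0.52 and -1.06). No gene of the lists read here passed an adjusted p of 0.05 in edgeR. In DESeq2 the adjusted p was 0.00962 for Sparc, 0.0104 for Smoc2, 0.000584 for Mmp14 and 0.00755 for Ctsl.

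Markers of the cells that make basement membrane were read in the same libraries. Of 12 vascular endothelial markers, 10 were tested and 9 were lower (median -0.83), 1 of them at an unadjusted p under 0.05, which was Tek (adjusted p = 0.239 by edgeR and 9.6e-05 by DESeq2), against 4.62% of all genes tested. That count was 4 in DESeq2 and in limma-voom, 2 without CTR replicate 3 or VPA replicate 1 and 3 without VPA replicate 2. Their summed CPM was 405 to 452 in CTR and 137 to 319 in VPA, without overlap. Tek, the angiopoietin receptor, was at 13.0, 16.0 and 16.4 CPM in CTR and at 0 in all 4 VPA libraries, as Col15a1 was. Cdh5, the endothelial cadherin, stood at 80.0, 65.2 and 76.2 CPM in CTR and at 0, 0, 29.7 and 26.4 CPM in VPA. Egfl7 and Emcn had log2 fold changes of -1.34 and -2.09 with SE of 0.634 and 1.00, and Vwf was at 0 in 2 of 3 CTR libraries and in every VPA library. Pecam1 was detected in all 7 libraries, at 43.3 to 68.6 CPM in CTR and 10.4 to 61.5 CPM in VPA.

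The sinusoidal endothelial list did not separate the groups. It had 8 of 10 markers tested, 5 lower and 3 higher (median -0.30), and a summed CPM of 209 to 224 in CTR and 113 to 353 in VPA. Bmp2 rose (log2 fold change 1.38, adjusted p = 0.422) and was the single one under 0.05 (3.65% of all genes tested were higher at that level), while Stab1, Stab2 and Kdr had -2.25, -1.39 and -0.28 with SE of 1.30, 1.40 and 0.572. VPA replicates 1 and 3 had the lowest sums on both endothelial lists.

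Of 12 stellate cell markers, all were tested and 7 were lower, 0 of them at an unadjusted p under 0.05 in edgeR and 1 in limma-voom or without VPA replicate 2 (median -0.13), with sums of 614 to 1576 CPM in CTR and 805 to 2251 CPM in VPA. Lrat, the enzyme that stores retinol, had a log2 fold change of -1.16 (SE 0.554), Dcn 0.51 (SE 0.444), Ecm1 0.29 (SE 0.357) and Pdgfrb -1.04 (SE 1.358). Des was at 30.7, 23.7 and 29.6 CPM in CTR and at 0, 28.9, 0 and 29.5 CPM in VPA, and Pdgfrb at 20.5, 21.9 and 16.4 CPM in CTR and at 9.79, 27.1, 0 and 0 CPM in VPA. Both overlapped between groups. Of 10 markers of activated stellate cells, 8 were lower, 4 at an unadjusted p under 0.05 (Col1a1, Vim, Col1a2 and Col3a1) where 4.62% of all genes tested were, with sums of 2228 to 3838 CPM in CTR and 1236 to 1615 CPM in VPA. Vim, an intermediate filament of mesenchymal cells, had a log2 fold change of -1.08 (SE 0.201, adjusted p = 0.193 by edgeR and 0.00162 by DESeq2). The count of 4 was 7 with a replicate block by slice culture. The activated stellate list and the fibrillar collagens share 3 genes.

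**Figure D5:**
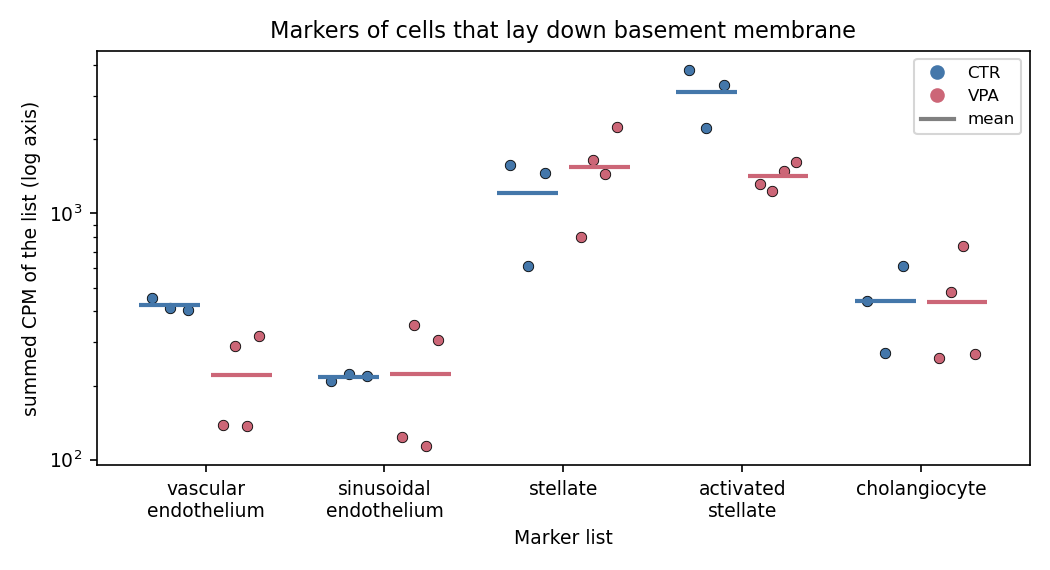
Summed CPM (log axis) of 5 marker lists in each of 3 CTR and 4 VPA libraries, with a bar at the mean. The vascular endothelial and activated stellate sums of VPA lie below those of CTR, and the sinusoidal, stellate and cholangiocyte sums overlap.

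Other cell types were read in the same way. Cholangiocytes, which rest on a laminin sheet, had 4 of 7 markers tested, 2 lower and 2 higher (median 0.11), and sums of 272 to 615 CPM in CTR and 258 to 741 CPM in VPA, with Krt19 at 0 in all CTR libraries and at 0, 14.1, 0 and 6.80 CPM in VPA. For hepatocytes 7 of 10 markers were tested, 3 lower and 4 higher (median 0.01), with sums of 4801 to 10931 and 2584 to 9633 CPM and with Ass1 at 0 throughout. The 3 tested of 6 Kupffer cell markers were all higher, with overlap between groups and a median of 0.37. Of those not tested, Vsig4 had counts in CTR only, and Adgre1 and Marco had none in any library. Smooth muscle markers (3 of 4 tested) were all lower with a median of -0.50, and 0 of 4 mesothelial markers were tested. None of these lists had a gene at an unadjusted p under 0.05 in edgeR with all libraries. Leaving out CTR replicate 2 or VPA replicate 3 gave 1 lower hepatocyte gene, leaving out VPA replicate 4 gave 1 higher cholangiocyte gene, and no alternative gave more than 1 gene in a direction for any of these lists. Vascular endothelial and activated stellate sums were lower in every VPA library than in every CTR library, beside the lower levels of Col4a1, Col4a2, Col15a1 and Nid1, and their part in those differences was not tested.

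Library totals ranged from 1400887 to 4773750 counts, with CTR replicate 2 the deepest. A check for a library deposited more than once found no pair of replicates that agreed within sampling noise (chi-square per degree of freedom 14.7 to 27.3).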

How the data were processed

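RNA of whole slices was made into QuantSeq 3′ FWD libraries. The authors deposited raw gene counts for 7 libraries, after alignment with STAR and use of StringTie on mm10 per the labels. Tool versions and the handling of strand and multimapped reads are not given in the sources used here. Counts were tested with edgeR 4.0.16 (TMM, filterByExpr, robust quasi-likelihood fit, condition only, Benjamini-Hochberg over 10876 genes, adjusted p threshold 0.05), in R 4.3.3. SE is the log2 fold change divided by the square root of F. CPM are counts scaled to the TMM effective library size. Single values had two-sided exact permutation tests over 35 regroupings on log2 CPM (prior count 2) or log2 ratios. p-values measure the spread between these libraries. Alternatives were DESeq2 1.42.0, limma-voom (limma 3.58.1), other scalings and filters, replicate blocks and leaving out each library. The script was tested on simulated data with less spread between libraries than these data and larger changes than most of the 10 genes showed. Symbols and coordinates came from GENCODE (GRCm38). Named were the 10 genes, up to 4 genes of each list with the smallest unadjusted p, and the 5 most like Col4a1. One gene that this rule names is not reported here. Slc19a1, Gm38009 and Gm8818 are named as overlapping genes. Vwf, Pecam1, Des, Krt19, Ass1, Vsig4, Adgre1 and Marco are markers picked after their values were seen. Genes and lists were chosen with earlier results of these data known.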

Additional observations from a re-analysis of the deposited data

How the results depend on the processing

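DESeq2 was the one alternative that changed the count of basement membrane genes at an adjusted p under 0.05, from 0 to 2 (Col4a1 and Col15a1). At an unadjusted p under 0.05 the count of 4 ranged from 3 to 5 over the alternatives, and the median log2 fold change from -0.70 to -0.34. Over 14 alternative fits, 137 of 137 fold changes of the 10 genes kept their direction. With a replicate block, by slice culture or by replicate number, 0 genes passed the adjusted threshold and 4 the unadjusted one, where Col4a2 was lost under both (log2 fold changes -0.42 and -0.41), Col18a1 entered by culture (-0.78) and Hspg2 by replicate number (-1.02). Deviations of libraries of the same slice culture correlated at 0.0256 to 0.107, not over 0.1 in each pair, so the main comparison was left unpaired. What the number marks is not stated in the labels. Exact tests of the ratios cannot reach 0.05 once a library is left out, and were then given as values, where the log2 ratio of Lama4 to Lama5 ran from -5.77 to 0.56. Of 392 counts of list genes under alternatives, 334 stayed within 1.5 times the reported count and 58 did not. A level under 3 counts, or 0.591 to 2.41 CPM by library, was taken as not distinguishable from 0.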
